A study of Nothobranchius furzeri with 15 samples.

Results

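In the skin of the turquoise killifish, 161 genes had their highest levels at the lower of 2 rotenone doses and nowhere else. These genes were chosen from their measured values: a gene entered when its lowest level in the 5 samples at 15 pM rotenone lay above its highest level in the other 10 samples, which were 5 solvent controls and 5 samples at 150 pM rotenone. Levels were CPM (a gene's read count scaled to a common library size) with edgeR's TMM scaling factors over all 15 samples. A gene also needed a mean of at least 1 CPM and could not be among the 100 most abundant genes of the controls, which left 16402 of the 26739 genes in the table to choose from. The 161 genes are 0.982% of these 16402. Because the rule used the 15 pM level against both other groups, those differences are a description, and the calls of a fitted model on them, printed below, support nothing. The rule set no order between 150 pM and the controls, and this comparison was tested. It did hold both groups below the lowest 15 pM sample, which limits how far they can differ upward.

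All samples were skin of 9-week-old males of the inbred GRZ strain of Nothobranchius furzeri, an annual fish with a short life. One group of 5 had only the solvent, dimethyl sulfoxide (DMSO), and the other groups of 5 had rotenone at 15 pM or at 150 pM. Nothing in the labels gives the length of exposure, and nothing says in so many words that every sample came from a fish of its own. The p-values therefore rest on sample-to-sample spread, part of which may be technical. Replicate numbers 1 to 5 follow the registration order within each group and only name the samples.

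Rotenone blocks complex I, the NADH dehydrogenase at the entry of the mitochondrial respiratory chain. Strong inhibition starves cells of ATP and raises the leak of electrons to oxygen. Mild inhibition is known in several animals to start signals from the mitochondrion to the nucleus, and responses to such mild stress need not grow with the dose. A gene that is high at the lower dose and at the solvent level at the higher dose has a non-monotonic profile. The rule selected for a profile without such growth, and a link of these genes to mitochondrial stress was not tested. Bulk skin holds epidermis, scales, pigment cells, vessels and blood, and fewer cells of a type cannot be told apart from less RNA per cell.

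The deposited tables identify genes only by numbers and do not pair them with names. A RefSeq table of 38438 killifish genes matched 0 of the 26739 identifiers, so no function is given for any gene, no sequence is shown, and the labelled tissue was not checked against marker genes. The 161 genes are therefore described by their rank in the ratio of the lowest 15 pM level to the highest other level, with 3 of them also given by identifier. Total counts ran from 21857670 to 28314659 per sample. The 20 most abundant genes held 15.9% of the counts in 15 pM replicate 4 and 18.1% in 15 pM replicate 1, against 24.8% to 33.4% in the other samples. The TMM factors at 15 pM ranged from 0.833 to 1.19, and those of the other groups from 0.9 to 1.14.

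The 161 genes fell into 2 kinds by the size of the margin. For 7 genes the lowest 15 pM sample exceeded the highest other sample by 2.31 to 30.02 times. For the other 154 the ratio was at most 1.46, and over all 161 genes its median was 1.051. The margin was under 1.1 for 109 genes, and the narrowest was 1.0002. Just outside the rule, the best gene had a ratio of 0.9997, and 22 genes had a ratio over 0.99. The limit at a ratio of 2 that separates the 7 genes was chosen after their values were seen.

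**Figure D1:**
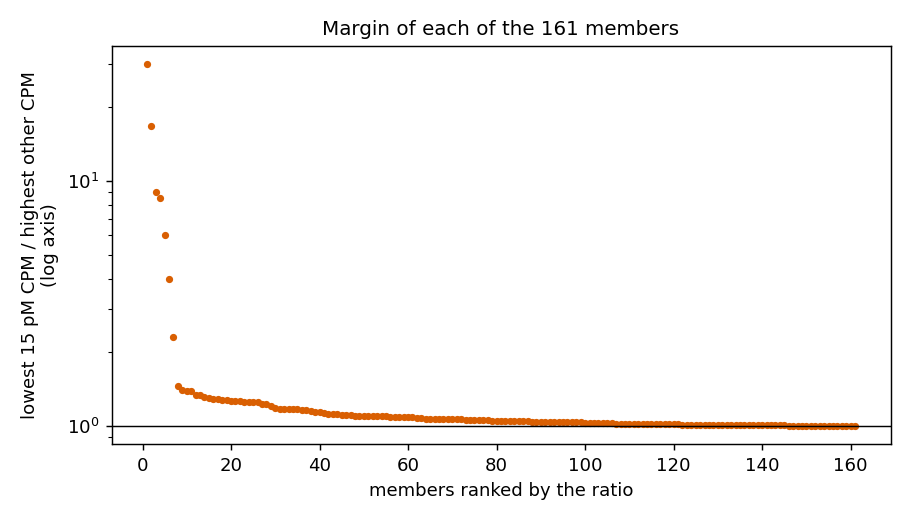
Ratio of the lowest 15 pM CPM to the highest CPM of the other 10 samples (log axis) for the 161 genes, ranked by that ratio. Each point is a gene, the line marks a ratio of 1, and 7 genes from 2.31 to 30.02 stand above the rest, which end at 1.46.

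The gene with the largest margin was Nfu_g_1_007507, with a length of 444 bases. At 15 pM its level was 270.2, 137, 181, 263 and 254 CPM in replicates 1 to 5. In the DMSO group it was 1.29, 4.56, 2.12, 1.71 and 1.06 CPM, and at 150 pM 0.609, 0.798, 0.678, 0.475 and 0.695 CPM. Every 15 pM sample stood at least 30.02 times above every other sample. The group means were 2.15 ± 1.41 CPM in DMSO, 221 ± 59.0 CPM at 15 pM and 0.651 ± 0.119 CPM at 150 pM (SD, n = 5). The mean at 15 pM was 103 times that of DMSO and 339.7 times that at 150 pM. The reads behind it were 33 to 109 per DMSO sample, 3467 to 7133 per 15 pM sample and 12 to 22 per 150 pM sample.

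Rank 2, a gene 435 bases long, had few reads outside the 15 pM group. It had 35.6, 11.2, 14.9, 27.8 and 23.9 CPM in the 15 pM replicates, against 0.322 to 0.667 CPM in DMSO and 0.136 to 0.514 CPM at 150 pM. The DMSO and 150 pM samples overlapped, with at most 17 reads in any of them.

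Rank 6, also 435 bases long, was not near 0 in all controls. It had 207, 86.2, 121, 239 and 189 CPM at 15 pM. In the DMSO group it had 21.7 CPM in replicate 2 and 21.6 CPM in replicate 4, but only 1.74 to 3.53 CPM in the other 3 replicates. At 150 pM it ranged from 1.29 to 4.83 CPM. Controls thus split into 2 high and 3 low samples for this gene, and the low ones lay in the range of the 150 pM group.

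The genes of rank 4 and 5 had lengths of 1416 and 1180 bases. The gene of rank 4 had 82.7, 20.8, 31.2, 59.4 and 71.7 CPM at 15 pM, 0.0322 to 2.45 CPM in DMSO and 0.152 to 1.52 CPM at 150 pM. At rank 5 the gene had 36.3, 4.18, 6.69, 9.24 and 29.1 CPM at 15 pM, and at most 17 reads in a DMSO sample and 2 reads in a 150 pM sample. Their highest controls were again DMSO replicates 4 and 2, in that order for both genes.

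The genes of rank 3 and 7, 915 and 432 bases long, were the most uneven within the 15 pM group. The gene of rank 3 had 265, 7.93, 22.015, 128 and 63.8 CPM in replicates 1 to 5, a mean of 97.3 ± 105 CPM (SD, n = 5). At rank 7 the levels were 100.2, 3.00, 5.9999, 69.9 and 19.5 CPM. In both, the highest replicate was 33.4 times the lowest, whereas this ratio was 1.98 to 8.67 for the other 5 genes and had a median of 1.48 for the other 154 genes. All DMSO and 150 pM samples were at most 0.878 CPM for rank 3 and at most 1.30 CPM for rank 7.

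The 7 genes ordered the 15 pM samples alike. Replicate 2 was the lowest of the 5 for all 7 genes, and replicate 1 was the highest for 6 of them, replicate 4 for the remaining one. Among the controls, replicate 2 was the highest for 4 genes, replicate 4 for 2 and replicate 3 for 1. The summed level of the 7 genes was 997, 270.1, 382, 796 and 651 CPM at 15 pM, against 3.73 to 30.6 CPM in DMSO and 2.47 to 7.44 CPM at 150 pM. The 15 pM replicates 1 and 4, which had the highest sums, were also those with the low share of the 20 most abundant genes. The part of this share in the result was not tested.

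**Figure D2:**
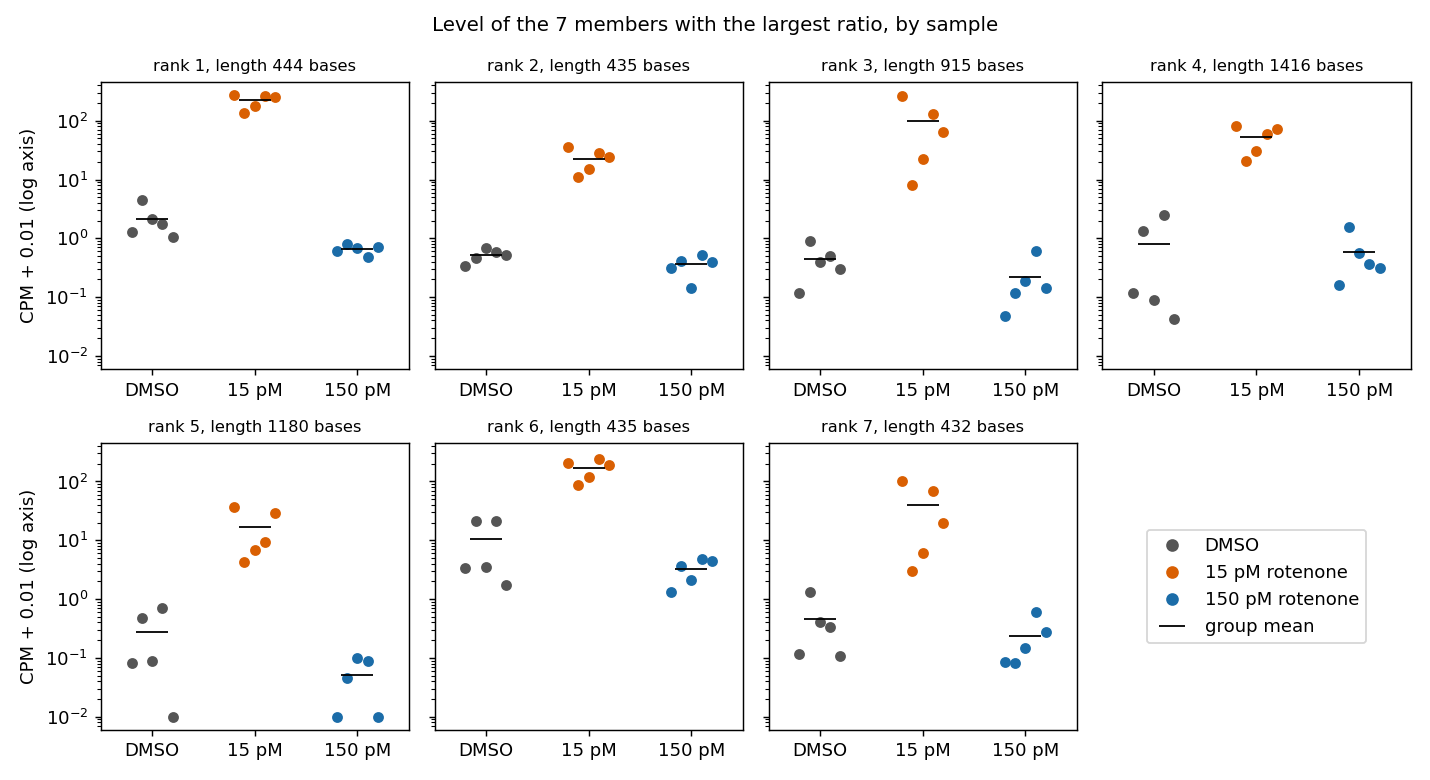
Level of the 7 genes with the largest ratio in each sample, as CPM + 0.01 on a log axis, with the gene length above each panel. Points are samples and bars are group means of 5. At 15 pM all points lie above all other points of the panel, which the rule guarantees. Rank 3 and rank 7 spread over the widest range within the 15 pM group.

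Per length, the order of the 7 genes at 15 pM differed from their order by margin. Divided by length in kilobases, the mean 15 pM level was 498 CPM per kilobase for rank 1 and 387 for rank 6. It was 106 for rank 3, 91.9 for rank 7, 52.2 for rank 2, 37.5 for rank 4 and 14.5 for rank 5. In DMSO only rank 6, with 23.9 CPM per kilobase, and rank 1, with 4.84, were above 1.17 on this scale. Lengths were derived from the deposited counts and RPKM.

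The 7 genes stood in 2 short runs of rows in the deposited tables. No source used here says what the order of rows stands for. Ranks 2, 1 and 6 filled 3 consecutive rows, and ranks 4 and 5 followed within a stretch of 9 rows. Ranks 3 and 7 filled 2 consecutive rows elsewhere. Counting the rows of the first stretch from 1, the members were in rows 1, 2, 3, 7 and 9. The gene in row 6 had a length of 444 bases, equal to that of rank 1, but had 1.99 ± 1.25 CPM in DMSO, 2.05 ± 0.249 CPM at 15 pM and 1.51 ± 0.967 CPM at 150 pM (SD, n = 5), so its groups overlapped. The genes in rows 5 and 8 were at 0 or at no more than 4 reads in any sample. The handling of reads that match several genes is stated in no source used here. Whether these neighbouring genes share reads was not tested, and similar lengths do not show it.

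Genes that were abundant in all groups lay in row 4 of this stretch and in rows 10 and 11, just after it. The gene in row 10 had 1310, 1290, 1186, 945 and 1601 CPM in the 15 pM replicates. It had 231 to 413 CPM in 4 DMSO samples, but 1367 CPM in DMSO replicate 2, and 372 to 680 CPM at 150 pM. DMSO replicate 2 alone overlapped with the 15 pM group. The same replicate was the highest control in row 4, with 1874 CPM, and in row 11, with 779 CPM. None of these 3 genes was called at 15 pM against DMSO by edgeR's quasi-likelihood test (adjusted p = 0.555, 0.113 and 0.235 for rows 4, 10 and 11). They were picked for their position after the values were seen.

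**Figure D3:**
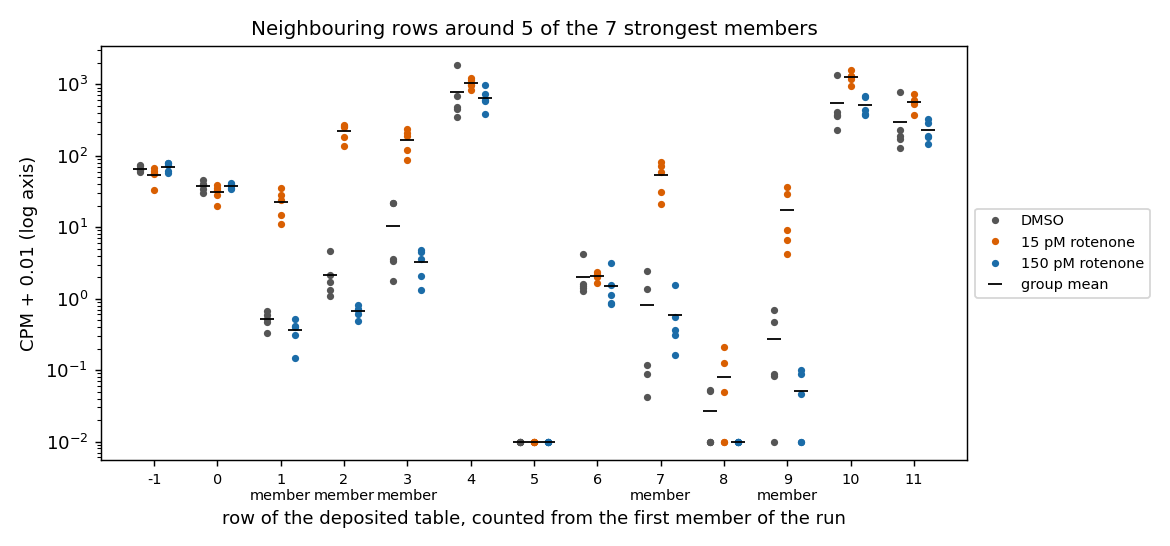
Level in each sample, as CPM + 0.01 on a log axis, for 13 neighbouring rows of the deposited tables around 5 of the 7 genes, counted from the first of them. Points are samples and bars are group means of 5. The 15 pM samples stand apart in the 5 rows marked as members, which the rule guarantees, and not in row 6.

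Neighbouring rows were also counted for the whole set. Over all 161 genes there were 4 pairs in consecutive rows, 3 of them among the 7 genes. The same rule turned to the other groups and directions found 142 genes highest only in DMSO, 50 highest only at 150 pM, 93 lowest only in DMSO, 78 lowest only at 15 pM and 122 lowest only at 150 pM. These are 0.866%, 0.305%, 0.567%, 0.476% and 0.744% of the eligible genes. In these 5 sets there were 0 to 2 pairs in consecutive rows, and their largest margin was 2.08 times. Pairs of neighbouring members at most 5 rows apart numbered 8 in the 161 genes and 0 to 5 in these 5 sets. Median margins were alike in all 6 sets, at 1.035 to 1.058.

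The other 154 genes differed from both groups by modest amounts. Their mean 15 pM level was a median of 1.55 times that of DMSO and 1.52 times that at 150 pM. Their largest values were 4.40 times DMSO and 5.28 times 150 pM, both for the gene of rank 21. Of all 161 genes, 24 were over 2 times both other means and 75 over 1.5 times both. The summed level of the 154 genes was 9764 ± 1383 CPM at 15 pM, 5840 ± 431 CPM in DMSO and 5943 ± 489 CPM at 150 pM (SD, n = 5).

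Rank 8, a gene of 663 bases, had the widest margin of the 154. Its level was 61.0, 59.3, 70.2, 98.3 and 49.2 CPM at 15 pM, 26.8, 29.4, 26.0, 28.6 and 20.9 CPM in DMSO and 24.7, 27.8, 33.7, 28.6 and 23.8 CPM at 150 pM. The 2 other groups overlapped almost fully, and the mean at 15 pM was 2.57 times that of DMSO.

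The gene of rank 21, 1809 bases long, had 14.1, 7.22, 15.2, 14.8 and 4.56 CPM at 15 pM. It had 1.22 to 3.60 CPM in DMSO and 1.74 to 2.502 CPM at 150 pM. Replicates 1, 3 and 4 were well above replicates 2 and 5, which lay nearest to the other groups.

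The member with the highest mean at 15 pM was Nfu_g_1_023370, 2524 bases long, with a margin of only 1.03. Its levels at 15 pM were 342, 583, 477, 1105 and 597 CPM. In DMSO they were 293, 243, 331, 267 and 215 CPM, and at 150 pM 305, 63.7, 68.0, 332 and 207 CPM. The 15 pM replicate 4 was the highest of all, and 150 pM replicates 2 and 3 were the lowest of all. Replicate 1 at 15 pM was close to the highest 150 pM sample, replicate 4, and to the highest control, DMSO replicate 3. The group means were 269.9 ± 44.7, 621 ± 289 and 195 ± 127 CPM for DMSO, 15 pM and 150 pM (SD, n = 5).

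A second abundant member, the gene of rank 80 with 7870 bases, had 499, 392, 474, 374 and 140.0 CPM at 15 pM. It had 90.6 to 127 CPM in DMSO and 85.4 to 133 CPM at 150 pM. Here replicate 5 was the low one at 15 pM, only 1.052 times above the highest other sample.

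The sample 15 pM replicate 4 stood apart in the 161 genes as a whole. It was the highest of the 15 pM samples for 81 genes, against 34, 28, 13 and 5 genes for replicates 5, 3, 1 and 2. In 25 genes, none of them among the 7, it exceeded the next 15 pM sample by over 1.5 times, which held for 2 genes in replicate 1 and for 0 in the others. The largest such gap was in the gene of rank 157, with 234 CPM in replicate 4 and 42.0 to 44.8 CPM in the other 4. Summed over the 154 genes, replicate 4 reached 12157 CPM against 8838 to 9680 CPM in the other 15 pM samples. Without replicate 4 the median fold over DMSO of all 161 genes was 1.48, against 1.58 with it, and 29 in place of 38 genes were over 2 times the DMSO mean.

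The low end of the 15 pM group was set mostly by replicates 2 and 1, which were the lowest for 60 and 50 genes. In the DMSO group, replicate 5 was the lowest for 86 genes. Its median ratio to the DMSO mean over the 154 genes was 0.911, against 0.972 to 1.07 in the other DMSO samples. This sample is part of the DMSO mean in every fold given here. The highest of the other 10 samples was a DMSO sample for 73 genes and a 150 pM sample for 88, most often DMSO replicate 3 or 150 pM replicate 4, with 31 genes each. Another 158 genes would have met the rule had 15 pM replicate 4 been left out of the order, 154 for replicate 2, 111 for replicate 1, 102 for replicate 5 and 27 for replicate 3.

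**Figure D4:**
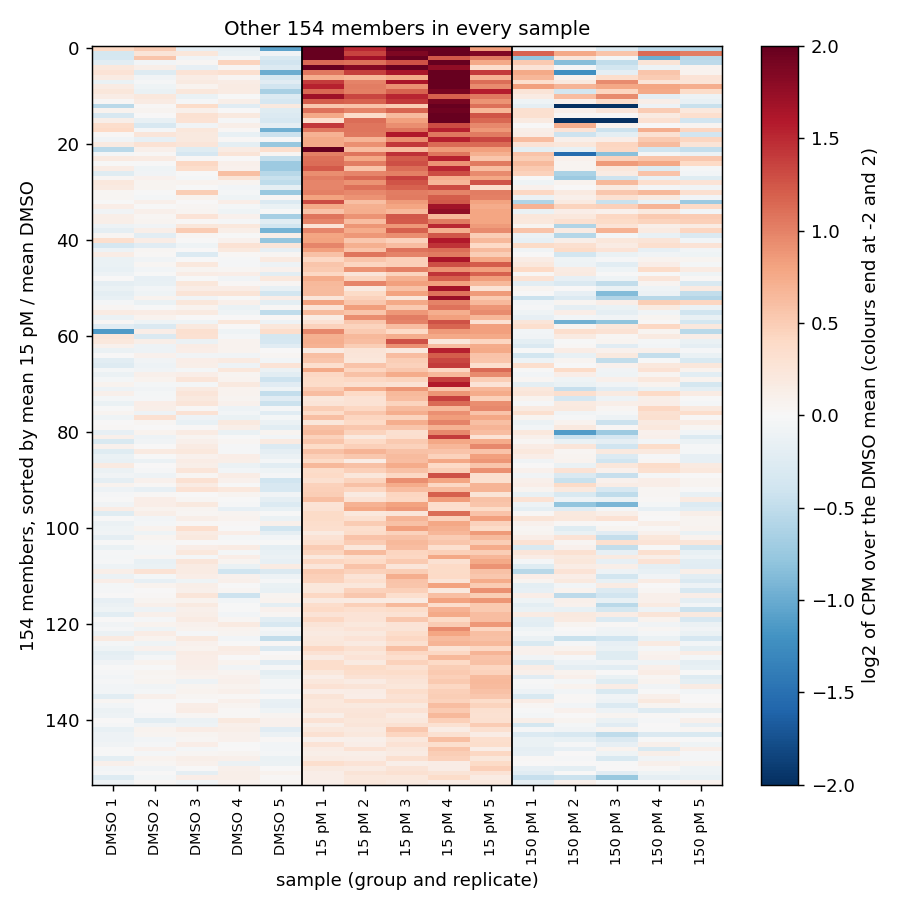
Level of the 154 genes with a ratio of at most 1.46 in each of the 15 samples, as log2 of the CPM over the gene's DMSO mean, sorted by the mean at 15 pM over the mean in DMSO. Red is above and blue below the DMSO mean. The 15 pM columns are red throughout, which the rule guarantees, with replicate 4 the strongest, and the other columns scatter around white.

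The margin was narrow beside counting error for most of the 161 genes. The exact Poisson 95% intervals of the lowest 15 pM sample and of the highest other sample were apart for 32 genes and overlapped for 129. These intervals cover counting error only, and their overlap does not show that a difference lies within that error. For the 7 genes the intervals were apart in each case, the narrowest being rank 7. There the lower bound was 2.36 CPM at 15 pM and the upper bound 1.84 CPM in the highest other sample. The intervals rest on the same values that the rule compared. The 7 genes were set apart by the ratio of these values, so nothing is read from their separation.

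The membership of the 154 genes also depended on the scaling of the libraries. With DESeq2 size factors the rule found 140 genes, 136 of them shared with the 161, and with upper-quartile factors 110 genes, 109 shared. With library totals and no further factor it found 110 genes, of which 63 were shared. On the deposited RPKM it found 47, of which 35 were shared. These RPKM were divided by totals repeated down the rows rather than by the sample's own total. That count is therefore not read as an effect of scaling. The 7 genes were found under each of these scalings, which margins of 2.31 and more leave little room to change.

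The 161 genes were 2524 bases long at the median, from 171 to 12283, against 2838 for the eligible genes. Lengths under 500 bases were seen for 16 of them, 9.94%, against 4.66% of the eligible genes, and 4 of the 16 were among the 7. Their level over all samples had a median of 21.8 CPM, from 1.55 to 391 CPM, against a median of 13.2 CPM for the eligible genes. All 161 passed the filter on low counts, and each had at least 36 reads in every 15 pM sample.

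The genes varied less within groups than the eligible genes did. The median SD of log2(CPM + 0.5) was 0.15 in DMSO, 0.24 at 15 pM and 0.16 at 150 pM for the 161 genes, against 0.19, 0.40 and 0.23. A rule that asks for groups without overlap favours genes with little spread, so nothing is read from this.

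The contrasts that the rule used were also fitted in a model of all 15 samples and all 18253 genes that passed the filter. The quasi-likelihood test of edgeR with Benjamini-Hochberg adjustment called 72 of the 161 genes raised at 15 pM against DMSO, where 1.07% of all genes were called raised. It called 67 lower at 150 pM than at 15 pM, against 0.898% of all genes, and 44 genes in both. Both comparisons share the 15 pM samples, and nothing is read from these counts.

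The comparison of 150 pM rotenone with DMSO asked whether genes that were high at the lower dose still differed from the solvent level at the higher dose. Of the 161 genes, edgeR's quasi-likelihood test with Benjamini-Hochberg adjustment at 0.05 called 0 raised and 0 lowered. The rule held both groups below the lowest 15 pM sample, so no absence of a response is read from these counts. Over all tested genes it called 0.0603% raised and 0.0438% lowered, 0.104% together. Without adjustment, 14 of the 161 genes, 8.70%, had a p under 0.05, against 15.1% of all genes. Of the 14, 10 were higher and 4 lower at 150 pM, where 6.83% and 8.32% of all genes were. Other tests called some: DESeq2 called 3 raised and 2 lowered, where it called 1.28% and 2.14% of all genes, and limma-voom called 10 raised and 3 lowered, against 6.18% and 6.65%. A fit without the 15 pM group called 7 and a fit without 15 pM replicate 4 called 5. The shares of all genes called in these fits are not given here, so nothing is read from their counts.

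The log2 fold changes at 150 pM centred on 0. Their median was 0.00 for the 161 genes and 0.00 for all tested genes, and 81 genes were higher and 80 lower than in DMSO, the latter being 49.7% against 50.5% of all genes. The lower and upper quartiles of the 161 genes were -0.11 and 0.13, against -0.23 and 0.23 for all genes, with a median standard error of 0.15 against 0.22. A change beyond 0.5 in either direction was estimated for 11 genes, 6.83%, against 20.3% of all genes. The rule puts the same ceiling on both groups, which limits how far they can differ upward. It also favours genes with little spread, which narrows changes in both directions. The shares for all genes cover the 18253 tested genes, not the 16402 eligible ones. Nothing is read from the narrower range of the 161 genes.

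**Figure D5:**
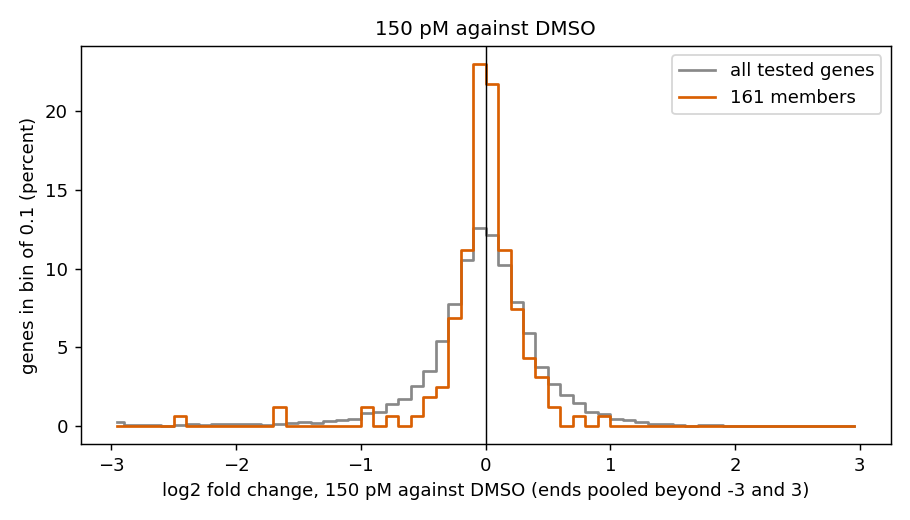
Distribution of the log2 fold change of 150 pM rotenone against DMSO, in bins of 0.1, for the 161 genes and for all 18253 tested genes, as percent of each set. Both lines centre on 0, and the 161 genes form the narrower peak with a few genes between -2.5 and -1.5. The rule favours genes with little spread, so nothing is read from the narrower peak.

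None of the 7 genes of the wide margin passed the threshold. Ranks 2, 3, 4, 5 and 7 had means of only 0.261 to 0.801 CPM in DMSO and 0.0411 to 0.575 CPM at 150 pM. They met the minimum of 1 CPM only through the 15 pM samples, so nothing is read from a direction shared by the 7. Nfu_g_1_007507 had the smallest p of them, at a log2 fold change of -1.69 (SE 0.36; edgeR, adjusted p = 0.0953). Its DMSO samples, at 1.06 to 4.56 CPM, did not overlap with those at 150 pM, at 0.475 to 0.798 CPM. Without DMSO replicate 2, its highest control, the log2 fold change was -1.23 (edgeR, adjusted p = 0.166). With any other sample left out it lay between -1.86 and -1.59. For the other 6 the log2 fold changes ran from -2.48 to -0.40, with adjusted p from 0.245 to 0.867 by edgeR. Rank 5, with the value of -2.48, had only 32 reads in all DMSO samples and 5 in all 150 pM samples together. Rank 6 had -1.65, but its DMSO mean came mostly from replicates 2 and 4.

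The second lower gene by p was Nfu_g_1_018279, 5494 bases long. It had 77.6, 86.8, 86.5, 88.8 and 76.5 CPM in DMSO, 103, 95.9, 112, 102 and 92.5 CPM at 15 pM and 68.8, 66.4, 58.2, 67.9 and 67.4 CPM at 150 pM. The 3 groups did not overlap, in the order 150 pM, DMSO, 15 pM. The rule guarantees the place of 15 pM, and only the order of DMSO and 150 pM was free. The difference from DMSO at 150 pM was -0.33 on the log2 scale (SE 0.09; edgeR, adjusted p = 0.125), so it was not called.

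Because the rule puts 15 pM highest, any gene higher at 150 pM than in DMSO lay between DMSO and 15 pM. By fold change this held for 81 of the 161 genes. The gene of rank 41, only 171 bases long, had the smallest p of all 161 in this comparison. It had 0.609 to 0.920 CPM in DMSO, 1.13 to 1.75 CPM at 150 pM and 1.97 to 3.46 CPM at 15 pM, again without overlap, from 17 to 23 reads per DMSO sample. The 150 pM level was above DMSO by 0.96 on the log2 scale (SE 0.20; edgeR, adjusted p = 0.0931). Rank 67 had 26.8 to 39.0 CPM in DMSO, 55.6 to 61.2 CPM at 150 pM and 65.6 to 158 CPM at 15 pM, with a log2 fold change of 0.77 at 150 pM (edgeR, adjusted p = 0.140). In all, the DMSO and 150 pM samples did not overlap for 8 genes that were higher and 4 that were lower at 150 pM. Over all tested genes this held for 3.25% and 4.85%.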

How the data were processed

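Read counts per gene were deposited by the authors for 15 skin RNA-seq samples as a table of raw counts, with a second deposited table of RPKM. The submitters' processing notes name CASAVA 1.8.2, STAR 2.4.1d and featureCounts 1.4.6-p4. No source used here states the genome build, the annotation or the counting options, and the library kit named in the labels does not mark strand, so overlapping antisense genes cannot be told apart. The deposited RPKM were divided by totals repeated down the rows rather than by the sample's own total: for 3936 genes with over 500 counts and over 0.5 RPKM in every sample, count over RPKM gave 1 length within 1% in 100% of genes with repeated totals and in 0% with own totals. RPKM therefore served for gene lengths and 1 alternative.

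Groups came from the labels. CPM used TMM factors over the whole table. The test was edgeR 4.0.16 in R 4.3.3, with a quasi-likelihood fit of all 15 samples, 1 mean per group, filterByExpr (minimum count 10, minimum total 15) and Benjamini-Hochberg adjustment over 18253 genes. Standard errors of edgeR fold changes were back-calculated as the size of the log2 fold change over the square root of the test's F statistic. They are approximate. DESeq2 1.42.0 and limma 3.58.1 (voom with quality weights) were alternatives, beside other scaling, filters, samples and a replicate block. The steps were tested on simulated data. The members, tests and identifiers to be named were chosen with earlier results of these data known: the largest ratio, the highest 15 pM mean and the 2 smallest p among genes lower at 150 pM, with Nfu_g_1_007507 filling 2 of these places. Genes described by rank only were chosen after their values were seen. The labels give no batch or date.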

Additional observations from a re-analysis of the deposited data

Results flagged for a closer look

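In 3 of 27 groups of 5 values examined, 1 sample lay far from the others of its group. Chance gives about 1 in 20 for independent groups that were not selected. These groups share samples, and many rest on genes that the rule selected, so the 3 are not set against that share. The summed level of the 154 genes with the smaller margins was 12157 CPM in 15 pM replicate 4, against 8838 to 9680 CPM in the other 15 pM samples. Nfu_g_1_018279 was at 58.2 CPM in 150 pM replicate 3, against 66.4 to 68.8 CPM in the other 150 pM samples. The total count of 150 pM replicate 2 was 28314659, against 23983152 to 24878602 in its group.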

How the results depend on the processing

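The median log2 fold change of the 161 genes at 150 pM against DMSO moved by less than a set limit in all 22 alternatives. For this limit, each DMSO sample's median ratio to the DMSO mean was taken over the 154 genes. The limit was the SD of log2 of these ratios. With 1 sample left out, the median log2 fold change ran from -0.03 to 0.01 at 150 pM against DMSO. The count of the 161 genes called there, 0 in the fit of all samples, was 7 in a fit of only the 2 groups, 5 by DESeq2 and 13 by limma-voom. It was 0 to 5 with 1 sample left out, the 5 being without 15 pM replicate 4. No share over all genes is given for the fit of only the 2 groups or for those with 1 sample left out. The counts for the contrasts that the rule used describe the selection and support nothing under any setting, and no share over all genes is given for these alternatives. The counts of 72 and 67 fell to 34 and 20 in fits of only the 2 groups. They were 145 and 146 by DESeq2 and 121 and 112 by limma-voom. With 1 sample left out they ranged from 45 to 102 and from 23 to 79. The lowest were without DMSO replicate 2 (45) for the former and, for the latter, without 150 pM replicate 5 (23). The latter count was also low when DMSO replicate 2 or 4 was left out (43 and 42), 15 pM replicate 3 (28), or 150 pM replicate 1, 2 or 3 (36, 39 and 28). The rule itself found 130 to 315 genes with 1 sample left out and the scaling recomputed. The count was 315 when 15 pM replicate 2 and 272 when 15 pM replicate 4 was omitted. On the deposited RPKM, which were not divided by the samples' own totals, it was 47.

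DMSO and 15 pM samples share numbers in their titles. Same-numbered samples deviated from their group means with correlations from -0.27 to 0.33. For every DMSO sample, the 15 pM sample with the highest correlation carried another number. No source used here says what the numbers stand for, and these correlations cannot decide whether they mark a pairing. In the fit of DMSO and 15 pM alone, 2 of the 161 genes were called at 15 pM with these numbers as a replicate block, against 34 without it. The rule used this contrast and no share over all genes is given for either fit, so nothing is read from the 2 counts. The 150 pM samples carry other numbers, so that comparison could not be blocked. The adjusted p at 150 pM ranged from 0.00172 to 0.230 for Nfu_g_1_007507 and from 0.00800 to 0.311 for Nfu_g_1_018279. The former passed in 4 of 22 alternatives and the latter in 3, both by DESeq2, by limma-voom and when the 2 groups were fitted alone, the former also without 15 pM replicate 4. The cause of these shifts was not tested. Low counts outside the 15 pM group limit ranks 2, 3, 4, 5 and 7.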
